A study of Capsicum annuum and Capsicum annuum
Solanum lycopersicum with 48 samples.

Results

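The 2 heterografts of tomato (*Solanum lycopersicum* var. M82) and pepper (*Capsicum annuum* var. Big Dipper) were compared with each other at 3 days after grafting (DAG), with the genes of each species taken apart. In the group labelled pepper:tomato a pepper scion was grafted onto a tomato stock, and in the group labelled tomato:pepper a tomato scion was grafted onto a pepper stock. These groups make up 8 of the 48 samples of the series, 4 replicates each, chosen by their labels. Each replicate was the junction of 1 plant with 1 cm of scion and 1 cm of stock, from which messenger RNA was sequenced. Both groups carry the same wound, and neither has an ungrafted control here. The heterografts at 1 and 5 DAG and the self-grafts of each species, all with 4 replicates per group, were set beside them. The study kept grafted plants dark for 3 days and gave them light again on day 4. Junctions of 5 DAG thus differ from the earlier ones in light as well as in time. The tables give 1 FPKM value per group (fragments per kilobase of transcript scaled to all mapped fragments of the library), with no spread between replicates and no counts. Depth is therefore unknown, no test compares the 2 heterografts, and every difference below is a description of 2 values with no replicate check.

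A graft joins when cut tissues divide into callus, when cambium, the layer of dividing cells between xylem and phloem, is set up across the callus, and when new xylem and phloem then differentiate from it. In *Arabidopsis thaliana*, TDIF peptides from the phloem bind the receptor PXY on cambial cells, and PXY signalling promotes the homeobox genes WOX4 and WOX14, which keep the cambium dividing. The NAC factors VND6, VND7, NST1 and NST2 drive xylem cells toward thick secondary walls. The study found lower survival in tomato and pepper heterografts than in self-grafts, lowest with tomato as the scion. Heterografts that live on fail to join their xylem, so the grafts show a delayed incompatibility. The reciprocal pair lets each species be read as a scion and as a stock. Roles given below for orthologs named by the study come from *A. thaliana* unless stated.

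The 2 species contributed unequally to the 2 grafts, and at 3 DAG the imbalance had the opposite direction to the other days. Tomato genes took 51.7% of all FPKM in the group labelled pepper:tomato at 3 DAG and 29.7% in the group labelled tomato:pepper, a difference of 22.0 percentage points. At 1 DAG tomato took 17.9% in pepper:tomato and 59.5% in tomato:pepper, a difference of -41.6 points. At 5 DAG the shares were 23.1% and 49.2%, a difference of -26.1 points. Tomato thus had the larger share in the graft where it is the labelled scion at 1 and 5 DAG, and where it is the labelled stock at 3 DAG. Without the 100 genes of highest FPKM in each column, the 3 DAG shares were 48.7% and 33.97%. Counted as genes at 1 FPKM or more, tomato made up 53.0% and 52.6%, a difference of 0.34 points. Fewer cells of a species and less RNA per cell cannot be told apart in these junctions.

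**Figure D1:**
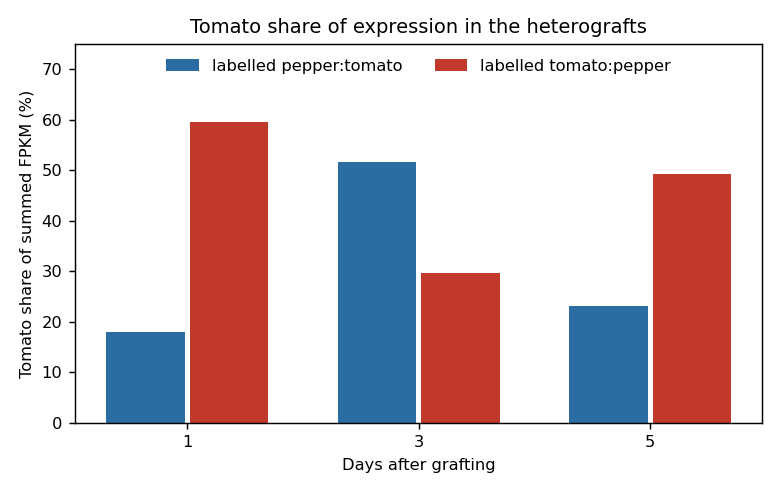
Tomato share of summed FPKM (percent, vertical axis) in the groups labelled pepper:tomato and tomato:pepper at 1, 3 and 5 DAG, with 1 bar per group value and no error. The blue bar is the lower of the pair at 1 and 5 DAG and the higher at 3 DAG, where it stands at 51.7% against 29.7%.

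The labels of the 2 groups at 3 DAG may have been exchanged. An exchange would give every 3 DAG difference below the opposite sign and leave its size as it is. Whether it happened was not tested, and in these tables it cannot be told apart from a change of direction between the days. Directions are therefore given by the label, and scion and stock are named as labelled.

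Because FPKM of a heterograft is shared between 2 species, each species was rescaled within itself before genes were compared. Each column was divided by the median of its ratios to the geometric mean of both 3 DAG columns, over genes of that species at 1 FPKM or more in both. Differences are log2 of (rescaled FPKM + 1) in labelled pepper:tomato over the same in labelled tomato:pepper, so that a positive value means higher in pepper:tomato. This scale understates the differences of low genes. Genes at 1 rescaled FPKM or more in either group were counted as measured, and genes at a log2 difference of 2 or more in size, which is 4-fold on this scale, as past the fold.

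Most genes were close in the 2 grafts. The middle 50% of the 17262 measured tomato genes lay between -0.58 and 0.39, and that of the 15151 pepper genes between -0.43 and 0.51. Of the tomato genes, 443 (2.57%) were past the fold higher in labelled pepper:tomato and 958 (5.55%) higher in labelled tomato:pepper, 8.12% in all. Of the pepper genes, 681 (4.49%) were past the fold higher in labelled pepper:tomato and 362 (2.39%) higher in labelled tomato:pepper, 6.88% in all. In each species, then, more genes were past the fold on the side of its labelled scion. This excess rests on the scaling. On FPKM as deposited, which also carries the species shares, 781 tomato genes were higher in labelled pepper:tomato and 611 in labelled tomato:pepper, and 475 and 670 pepper genes.

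**Figure D2:**
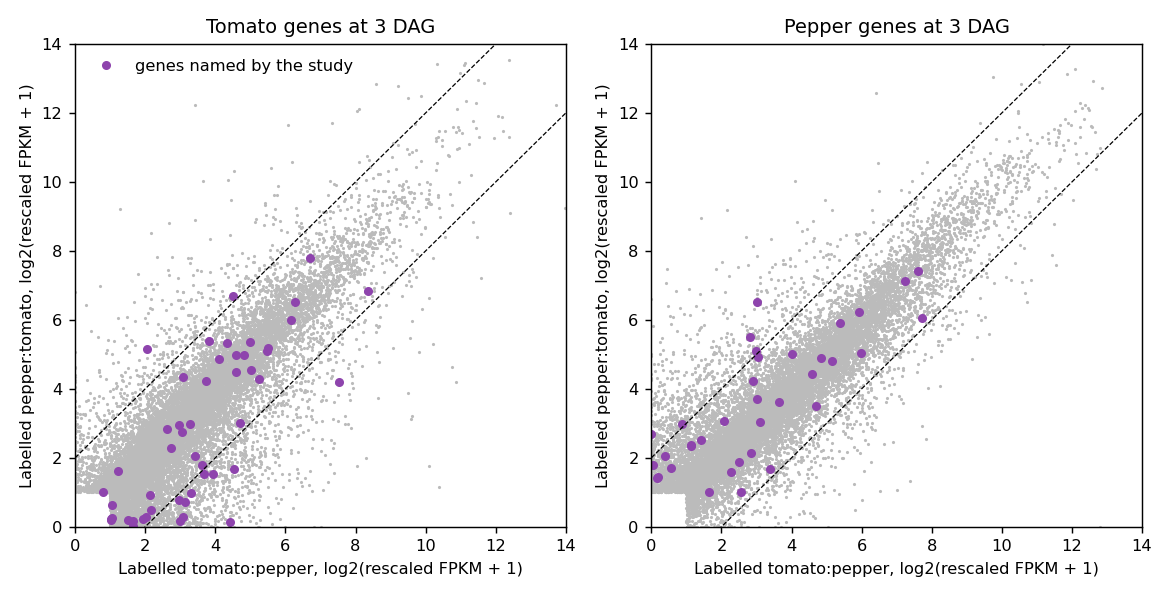
Level of each measured tomato gene (left) and pepper gene (right) at 3 DAG as log2(rescaled FPKM + 1), labelled tomato:pepper on the horizontal and labelled pepper:tomato on the vertical axis. Grey points are genes, purple points genes named by the study and dashed lines a log2 difference of 2 either way. More tomato genes lie below the lower line (958) than above the upper (443), and more pepper genes above (681) than below (362).

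The difference between the grafts at 3 DAG ran against the differences at 1 and 5 DAG, which come from separate libraries. Across 16490 tomato genes measured at both days, the 3 DAG difference had the same sign as at 1 DAG for 30.6% (Pearson's r = -0.56, Spearman's rho = -0.54). Against 5 DAG it was 31.4% of 16709 genes (r = -0.62, rho = -0.56). Between 1 and 5 DAG, by contrast, 77.4% of 17215 tomato genes had the same sign (r = 0.67, rho = 0.70). Pepper genes had the same sign in 40.5% of 14712 against 1 DAG (r = -0.35, rho = -0.29) and in 22.1% of 14908 against 5 DAG (r = -0.79, rho = -0.76). Between 1 and 5 DAG the pepper share was 72.4% of 15580 (r = 0.56, rho = 0.58). With the 3 DAG labels exchanged, the shares were 69.4% and 68.6% in tomato and 59.5% and 77.9% in pepper. These values are across genes, which share their libraries and are not independent replicates.

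Genes with a large and repeated difference at the other days showed the same reversal. In tomato, 72 genes were past the fold higher in pepper:tomato at both 1 and 5 DAG, and 70 of them were higher in labelled tomato:pepper at 3 DAG, with a median difference of -2.38. Of 133 tomato genes past the fold higher in tomato:pepper at both days, 132 were higher in labelled pepper:tomato at 3 DAG (median 2.74). For pepper the counts were 113 of 119 (median -1.76) and 171 of 172 (median 2.76). Past the fold at all 3 days with 3 DAG opposite to the others were 134 tomato and 169 pepper genes. Only the tomato gene Solyc01g015040, singled out after its values were seen, was past the fold in the same direction at all 3 days, with differences of 2.35, 2.04 and 2.26, and no pepper gene was.

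**Figure D3:**
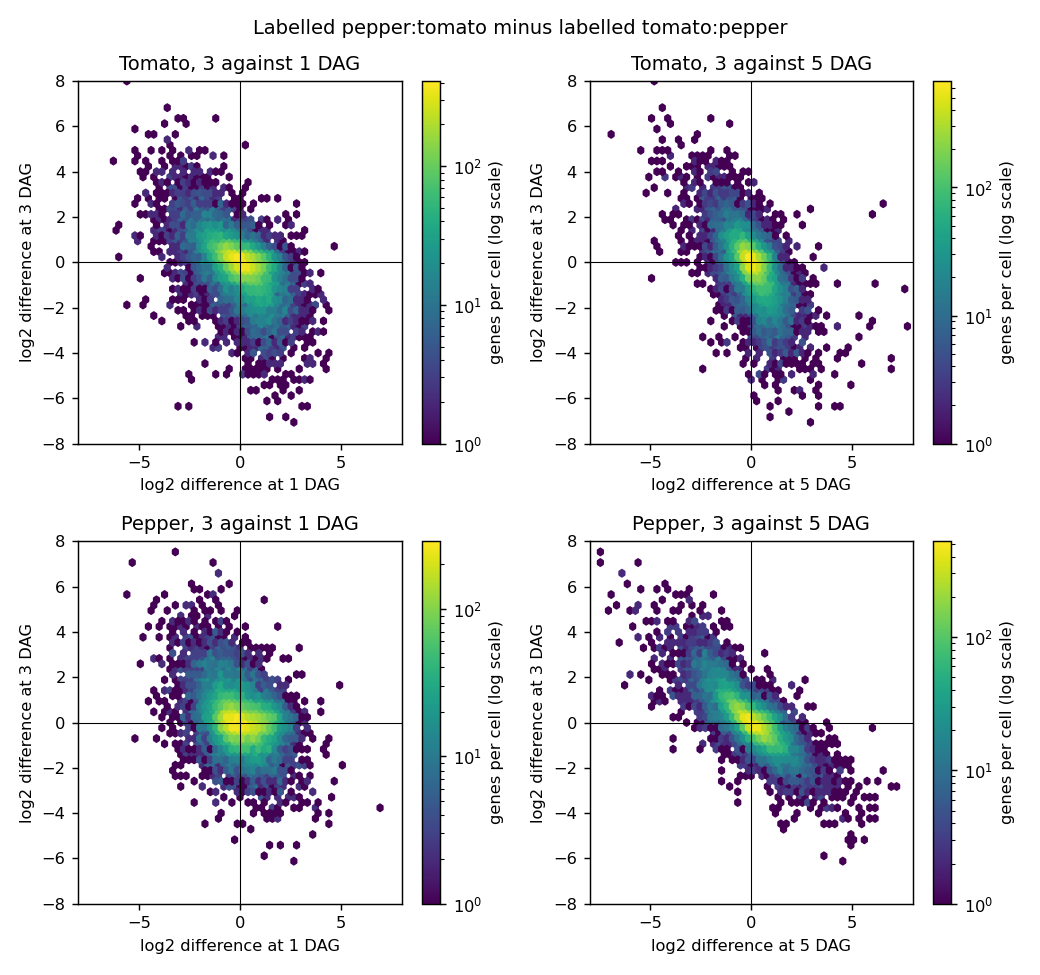
Log2 difference, labelled pepper:tomato minus labelled tomato:pepper, at 3 DAG (vertical axis) against 1 DAG (left) and 5 DAG (right) for tomato (top) and pepper (bottom), coloured by genes per cell on a log scale. Genes beyond 8 in size are not drawn. All 4 clouds slope downward, with r from -0.35 (pepper, 1 DAG) to -0.79 (pepper, 5 DAG).

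The group labelled pepper:tomato at 3 DAG was closer in its ranking of genes to tomato:pepper at the other days than to pepper:tomato. Over 19988 tomato genes, Spearman's rho with tomato:pepper was 0.954 at 1 DAG and 0.905 at 5 DAG, and with pepper:tomato 0.776 and 0.767. Over 17214 pepper genes, rho was 0.953 and 0.938 with tomato:pepper, and 0.842 and 0.876 with pepper:tomato. For the group labelled tomato:pepper at 3 DAG the order was mixed. Its pepper genes were nearer pepper:tomato at 5 DAG (0.939 against 0.800) and nearer tomato:pepper at 1 DAG (0.911 against 0.889). Its tomato genes were nearer tomato:pepper at both days, with 0.888 against 0.843 at 1 DAG and 0.940 against 0.923 at 5 DAG.

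Set against the self-graft of the same species at 3 DAG, tomato genes stood further away than pepper genes in both grafts. Levels across these tables were set on 1 scale by the same medians of ratios, although the tables were normalized separately. Of the tomato genes, 165 were past the fold above and 613 below the tomato self-graft in labelled pepper:tomato (4.61% in all). In labelled tomato:pepper, 370 were above and 781 below (6.54%). Of the pepper genes, 16 were above and 97 below the pepper self-graft in labelled pepper:tomato (0.751%), and 19 above and 306 below in labelled tomato:pepper (2.19%). The pepper genes that separated the grafts mostly had a self-graft level nearer the graft in which they were higher, with 605 of the 681 higher in labelled pepper:tomato and 296 of the 362 higher in labelled tomato:pepper. Tomato genes split by direction. The self-graft was nearer the higher value for 326 of the 443 higher in labelled pepper:tomato, and nearer the lower value for 611 of the 958 higher in labelled tomato:pepper. Genes past the fold whose self-graft was under 1 rescaled FPKM at every day, where reads of the other species could make up the value, were few, 16 of 443 and 43 of 958 in tomato and 2 of 681 and 6 of 362 in pepper. The part of such reads in other genes was not tested.

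Cambium regulators of tomato were higher in the group labelled tomato:pepper, with tomato as the labelled scion. WOX4 (Solyc04g078650), which maintains cambial cells and is the gene the study went on to mutate, stood at 2.18 rescaled FPKM in labelled pepper:tomato and 22.1 in labelled tomato:pepper, a difference of -2.86. At 1 DAG it had stood at 20.5 and 6.11, and at 5 DAG at 29.1 and 12.7, so pepper:tomato was the higher graft at both of these days. The tomato self-graft, at 8.57, 10.5 and 11.8 over the 3 days, lay between the 2 heterografts at 1 and 3 DAG and below both at 5 DAG. Both genes for the receptor PXY lay on the same side as WOX4. Solyc03g093330 was at 0.661 and 7.81 (difference -2.41) and Solyc05g051640 at 0.218 and 3.06 (-1.74), against differences of 1.47 and 2.61 at 1 DAG and of 0.94 and 1.69 at 5 DAG. The gene for the TDIF peptide that PXY binds (Solyc09g061410) was abundant in both grafts, at 113 in labelled pepper:tomato and 326 in labelled tomato:pepper (-1.51).

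Several other cambial genes of tomato were lower in labelled pepper:tomato too, while others were near level. MOL1 (Solyc07g005010), a receptor-like kinase that restrains cambial activity, stood at 1.87 in labelled pepper:tomato and 14.2 in labelled tomato:pepper (-2.40). The gene listed for MP and ATHB8 (Solyc04g081235), auxin-linked regulators of early vascular cells, stood at 0.983 and 8.99 (-2.33). TMO6 (Solyc11g072500), a Dof factor of the young vascular strand, was at 1.91 and 11.9 (-2.15), and its 2 other copies differed by -1.68 and -1.33. LBD4 (Solyc02g069440), which acts at the border of phloem and cambium, differed by -1.83 and WOX14 (Solyc02g082670) by -0.95. The 6 genes of BIN2/BIL1, GSK3-like kinases of brassinosteroid signalling, lay between -0.34 and 0.38, the receptor kinase pair SERK1/SERK2 (Solyc04g072570) was at -0.30 and the meristem gene KNAT1 (Solyc04g077210) at -0.48. The receptor kinase ER (Solyc08g061560) was at -0.80, the 2 BES1 genes at -0.39 and 0.24, the other measured LBD4 gene at -0.43, and the 2 LHW genes at -0.79 and 0.75. A further LBD4 gene and an ER-like gene were under 1 in both grafts.

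Over the list of 27 tomato genes for cambium and vascular signalling, 25 were measured. Past the fold were 5 higher in labelled tomato:pepper and 0 higher in labelled pepper:tomato, against 5.55% and 2.57% of all measured tomato genes, and 19 of the 25 differences were below 0. The list's median was -0.79 beside -0.03 over all tomato genes, and it had been 0.73 at 1 DAG and was 0.63 at 5 DAG. On FPKM as deposited the median of all tomato genes shifts to 0.44 with the species share, and that of these 25 genes was -0.39, or 0.05 over the genes that then reach 1 FPKM. On that scale MOL1 (-1.94), MP/ATHB8 (-1.92) and TMO6 (-1.68) were no longer past the fold, and none of the 5 changed sign. The median was closer to 0 when low genes weighed less, at -0.43 with a filter of 5 rescaled FPKM, -0.35 with a pseudocount of 5 and -0.32 among genes at 5 or more in the self-graft, a limit added after seeing the data.

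**Figure D4:**
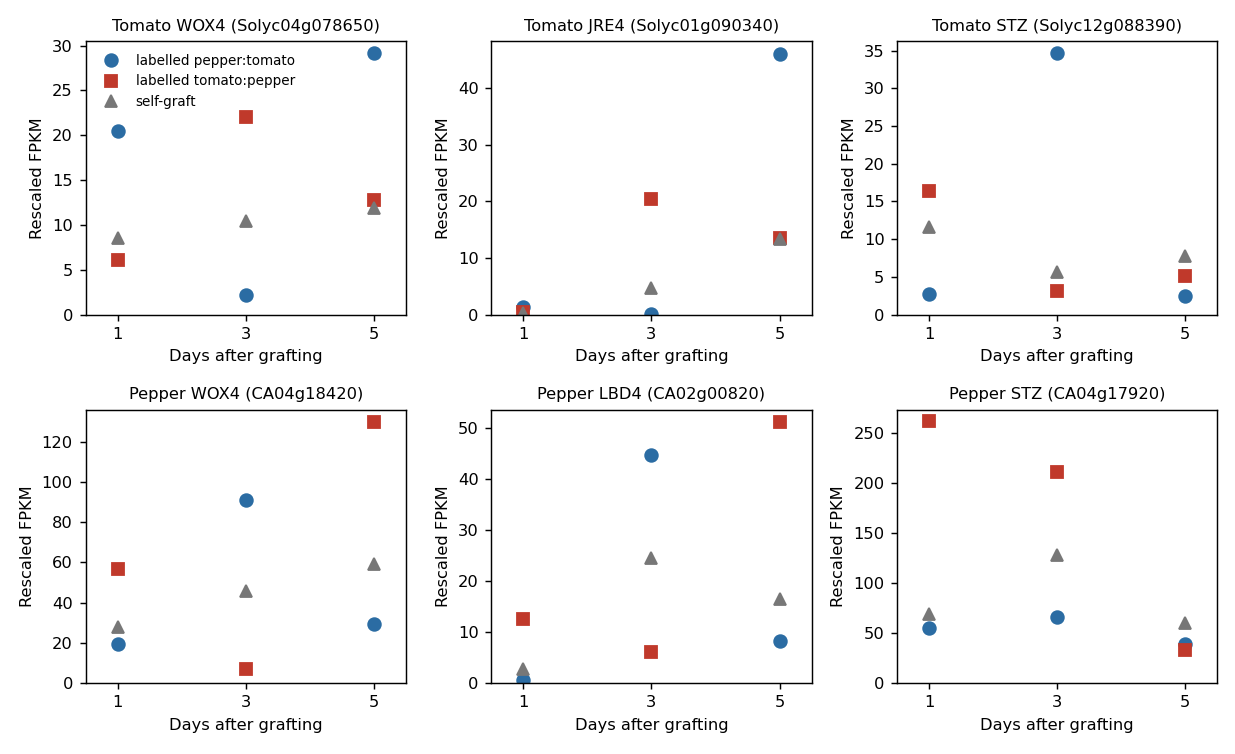
Rescaled FPKM (vertical axis, from 0) of 3 tomato genes (top) and 3 pepper genes (bottom) at 1, 3 and 5 DAG in the groups labelled pepper:tomato (circles) and tomato:pepper (squares) and in the self-graft of the species (triangles), with 1 value per group. For WOX4 of both species, LBD4 of pepper and STZ of tomato, the higher heterograft at 3 DAG is the lower at 1 and 5 DAG.

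Pepper cambium regulators were higher in the group labelled pepper:tomato, with pepper as the labelled scion. Pepper WOX4 (CA04g18420) stood at 91.3 in labelled pepper:tomato and 7.04 in labelled tomato:pepper, a difference of 3.52, the largest of the named pepper genes. It had stood at 19.4 and 56.7 at 1 DAG and was at 29.1 and 130 rescaled FPKM at 5 DAG, so tomato:pepper was the higher graft at both days. The pepper self-graft stood at 27.7, 45.8 and 59.3 at 1, 3 and 5 DAG and lay between the heterografts each time. LBD4 (CA02g00820) was at 44.7 and 6.10 (2.68), against 0.638 and 12.5 at 1 DAG and 8.25 and 51.1 at 5 DAG. BES1 (CA04g20150), a transcription factor of the brassinosteroid pathway, was at 33.3 and 6.86 (2.12), and PXY (CA03g15770) at 6.90 and 0.846 (2.10).

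Smaller differences in the same direction were found for other pepper receptors and regulators. SERK1/SERK2 (CA04g14890), co-receptors of receptor kinases, stood at 29.4 and 7.17 (1.90). The gene listed for MP and ATHB8 (CA04g23050) differed by 1.31, the other PXY gene (CA05g14410) by 1.23, the receptor kinase ER (CA08g03060) by 1.15 and MOL1 (CA07g02560) by 1.10. WOX14 (CA02g19960) was nearly level at 74.2 and 60.1 (0.30), as was KNAT1 (CA04g16610) at 28.9 and 27.4 (0.07). TMO6 (CA06g23590) was at 26.8 and 34.3 (-0.35), so the 3 tomato copies and the pepper copy of this gene were all higher in labelled tomato:pepper. LHW (CA11g16160), a bHLH factor of early vascular divisions, was at 7.22 and 7.51 (-0.05) after a difference of 3.14 at 1 DAG. The 4 BIN2/BIL1 genes lay between -1.21 and 0.52, the other BES1 gene (CA12g17430) was at 0.98 and the other LBD4 gene (CA12g22480) at -0.62, and an ER-like gene was under 1 in both grafts. Of 20 pepper genes in the cambium list, 19 were measured, 4 past the fold higher in labelled pepper:tomato and 0 higher in labelled tomato:pepper, beside 4.49% and 2.39% of all pepper genes. Of the 19, 13 differences were above 0, with a median of 0.98 beside 0.02 over all pepper genes. The median had been 0.02 at 1 DAG and was -0.63 at 5 DAG. It came to 0.49 on FPKM as deposited, where BES1 (1.65) and PXY (1.75) were no longer past the fold, to 0.52 with a filter of 5, to 0.48 with a pseudocount of 5 and to 0.30 among genes at 5 or more in the self-graft.

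Read by position, most but not all cambium genes of each species were higher in the graft in which that species is the labelled scion at 3 DAG, the greater part of them within the fold. The study shows the cambium, xylem and stress genes together, for cambium and xylem maintenance, and they were parted here. Of the stress part, 4 of 11 measured tomato genes and 1 of 7 pepper genes were higher in the labelled scion. Of the xylem part it was 3 of 3 and 2 of 2, each measured only through its value there. Of the cambium list, 19 of 25 tomato genes and 13 of 19 pepper genes were higher in the labelled scion, beside 51.9% and 51.3% of all measured genes of the species. At 5 DAG it was 5 of 25 tomato genes and 4 of 19 pepper genes, beside 42.6% and 53.1% of all genes. At 1 DAG it was 10 of 25 and 10 of 19, beside 42.4% and 53.8%. With the 3 DAG labels exchanged, the genes listed as higher in the scion at 3 DAG would be higher in the stock, the position in which most of the list was higher at 5 DAG. Of 21 gene names measured in both species, 11 had every measured copy of both species higher in the labelled scion, namely WOX4, WOX14, PXY, MOL1, MP/ATHB8, ER, KNAT1, SERK1/SERK2, LBD18, VND6 and VND7. Many of these were within the fold, and a further pepper VND6 gene (CA03g15410), under 1 in both grafts, stood the other way at 0.0952 and 0.419. The measured copies of VND6, VND7, LBD18 and ER passed the filter in both species only through their value in the labelled scion. Every measured copy was higher in the labelled stock for 2 names, STZ and WRKY33. On FPKM as deposited, where the median of all pepper genes shifts to -0.42, 13 of 25 tomato and 11 of 19 pepper cambium genes were higher in the labelled scion, beside 28.9% and 28.3% of all genes. Of the 11 names, 8 then kept their direction, while KNAT1 turned to the stock and WOX14 and SERK1/SERK2 became mixed.

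Xylem fate genes were low in both species at 3 DAG. Those measured were higher in the labelled scion, but each reached the filter of 1 only through that value. Their shared direction is therefore no evidence about the list. In tomato, NST1 (Solyc10g005010), a NAC factor for secondary walls, stood at 0.706 in labelled pepper:tomato and 6.77 in labelled tomato:pepper (-2.19), VND6 (Solyc06g034340) at 0.0259 and 2.12 (-1.60) and VND7 (Solyc06g065410) at 0.150 and 1.02 (-0.81). The other 3 of the 6 tomato xylem genes were under 1 in both grafts. In pepper, VND6 (CA06g06410) stood at 3.18 and 0.322 (1.66) and VND7 (CA06g14050) at 1.74 and 0.145 (1.26), and the other 3 of 5 were under 1 in both grafts. Of these other pepper genes, VND6 (CA03g15410, -0.37) and NST1 (CA11g08290, -0.09) lay toward the labelled stock and NST2 (CA01g34750, 0.19) toward the labelled scion. The list's median was -1.60 in tomato and 1.46 in pepper, and with no filter -0.69 and 0.19. The number of reads behind levels this low is not known. Only tomato NST1 was past the fold, and on FPKM as deposited it was not (-1.81).

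Genes of the networks that the study inferred, mostly hubs of the self-grafts, included the widest differences among named tomato genes. JRE4 (Solyc01g090340), a jasmonate-responsive ERF of tomato, stood at 0.108 in labelled pepper:tomato and 20.4 in labelled tomato:pepper (-4.27), with the tomato self-graft at 4.65 between them. At 5 DAG it stood at 45.9 and 13.5 (1.69). The cell wall gene XTH (Solyc07g052980), an enzyme that cuts and rejoins xyloglucan, was at 17.4 and 184 (-3.33), against 105.3 and 24.9 at 1 DAG and 142 and 71.5 at 5 DAG. LBD18 (Solyc01g091420), a factor of callus formation, was at 0.127 and 6.95 (-2.82), and the ethylene response factor ERF4 (Solyc01g090560) at 0.212 and 7.397 (-2.79).

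The other tomato genes of this list were within the fold. The homeobox gene THOM1 (Solyc01g090460), a mark of meristem cells in tomato, differed by -1.67, the other XTH (Solyc11g065600) by -1.72 and HCA2 (Solyc06g071480), a Dof factor that raises cambial activity, by -1.22. A bHLH gene of the same list (Solyc01g098720), which the study names from its heterograft networks, differed by -1.46. The hubs of the 1 DAG module, NAC104 and PTI5, stood apart. NAC104 (Solyc01g104900), which restrains cell death in developing xylem, was higher in labelled pepper:tomato, at 19.2 against 7.47 (1.25), and so was the defence-related ERF PTI5 (Solyc02g077370), at 38.8 against 19.0 (0.99). RAP2.6L (Solyc12g042210), an ERF needed for tissue reunion in cut stems, was level at 6.74 and 6.82. The study predicts RAP2.6L and HCA2 as targets of these hubs. Of the 11 tomato network genes, 4 were past the fold higher in labelled tomato:pepper and 0 higher in labelled pepper:tomato, with a median of -1.67. The shares over all tomato genes were 5.55% and 2.57%. A sign opposite to both other days was found for 10 of the 11, beside 9242 of the 16195 tomato genes measured at every day. Of the 11, only 8 were measured at 1 DAG. Most of the 11 network genes are low in the self-graft. Only NAC104, PTI5, RAP2.6L and the XTH Solyc07g052980 were at 5 rescaled FPKM or more there at 3 DAG. Their differences were 1.25, 0.99, -0.01 and -3.33, with a median of 0.49.

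In pepper, LBD18 (CA01g11210) was at 5.41 in labelled pepper:tomato and listed at 0 in labelled tomato:pepper, against 4.12 in the pepper self-graft. MYB86 (CA01g20220), tied to lignin in xylem, was at 2.47 and 0.0239 (1.76), and MYC2 (CA01g00280), the central factor of jasmonate signalling, at 1.67 and 0.123 (1.25). MYC2 had been lower in pepper:tomato at 1 DAG (0.555 against 5.23) and was lower again at 5 DAG (0.112 against 6.72). HD-ZIP14 (CA10g19210) differed by 1.22 and XTH38 (CA11g08350) by 0.99. NGAL1-like (CA01g00060), LBD25 (CA02g30000) and XTH22 (CA07g00520) lay from -0.69 to -0.63, and the ERFs CA01g01830 and CA01g01880 were under 1 in both grafts. Of 9 pepper network genes measured of 11, 2 were past the fold higher in labelled pepper:tomato and 0 higher in labelled tomato:pepper. The shares over all pepper genes were 4.49% and 2.39%. The list's median was 1.22, and it came to 0.55 with a pseudocount of 5 and to 1.83 with a filter of 5 rescaled FPKM.

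The genes grouped here as stress-related transcription factors, which the study shows among its cambium and xylem genes, lay mostly on the opposite side. In tomato, STZ, a zinc finger repressor of salt and drought responses, has 2 copies, and both were past the fold higher in labelled pepper:tomato. Solyc12g088390 stood at 34.6 and 3.12 (3.11) and Solyc04g077980 at 102 and 21.7 (2.19), against -2.23 and -1.70 at 1 DAG. WRKY33 (Solyc06g066370), a factor of defence against fungi, stood at 41.1 and 13.2 (1.57), and the ethylene response factor Solyc05g052050 at 220.2 and 103 (1.09). Of the 11 measured tomato genes of this list, 2 were past the fold higher in labelled pepper:tomato and 0 higher in labelled tomato:pepper, beside 2.57% and 5.55% of all tomato genes, with a median of 0.40. The exceptions were MYB15 (Solyc06g053610), at 3.13 and 9.81 (-1.39), and 3 genes between -0.42 and -0.15.

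Pepper stress factors were mostly higher in labelled tomato:pepper, with pepper as the labelled stock, and none of 7 was past the fold. STZ (CA04g17920) stood at 65.5 and 211 (-1.67). It was higher in tomato:pepper at 1 DAG too, at 55.3 and 262, and nearly level at 5 DAG, at 39.1 and 32.7. The 3 copies of WRKY33 were at 2.22 and 9.48 (CA09g11950, -1.70), 1.02 and 4.92 (CA09g11940, -1.55) and 32.02 and 62.4 (CA06g13580, -0.94). WRKY46 (CA08g08240) was at 11.3 and 11.4, and the ethylene response factor CA05g14470 at 20.7 and 22.8. The median of the list was -0.94 beside 0.02 over all pepper genes, and MYB15 (CA06g10340) was the exception at 0.69.

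**Figure D5:**
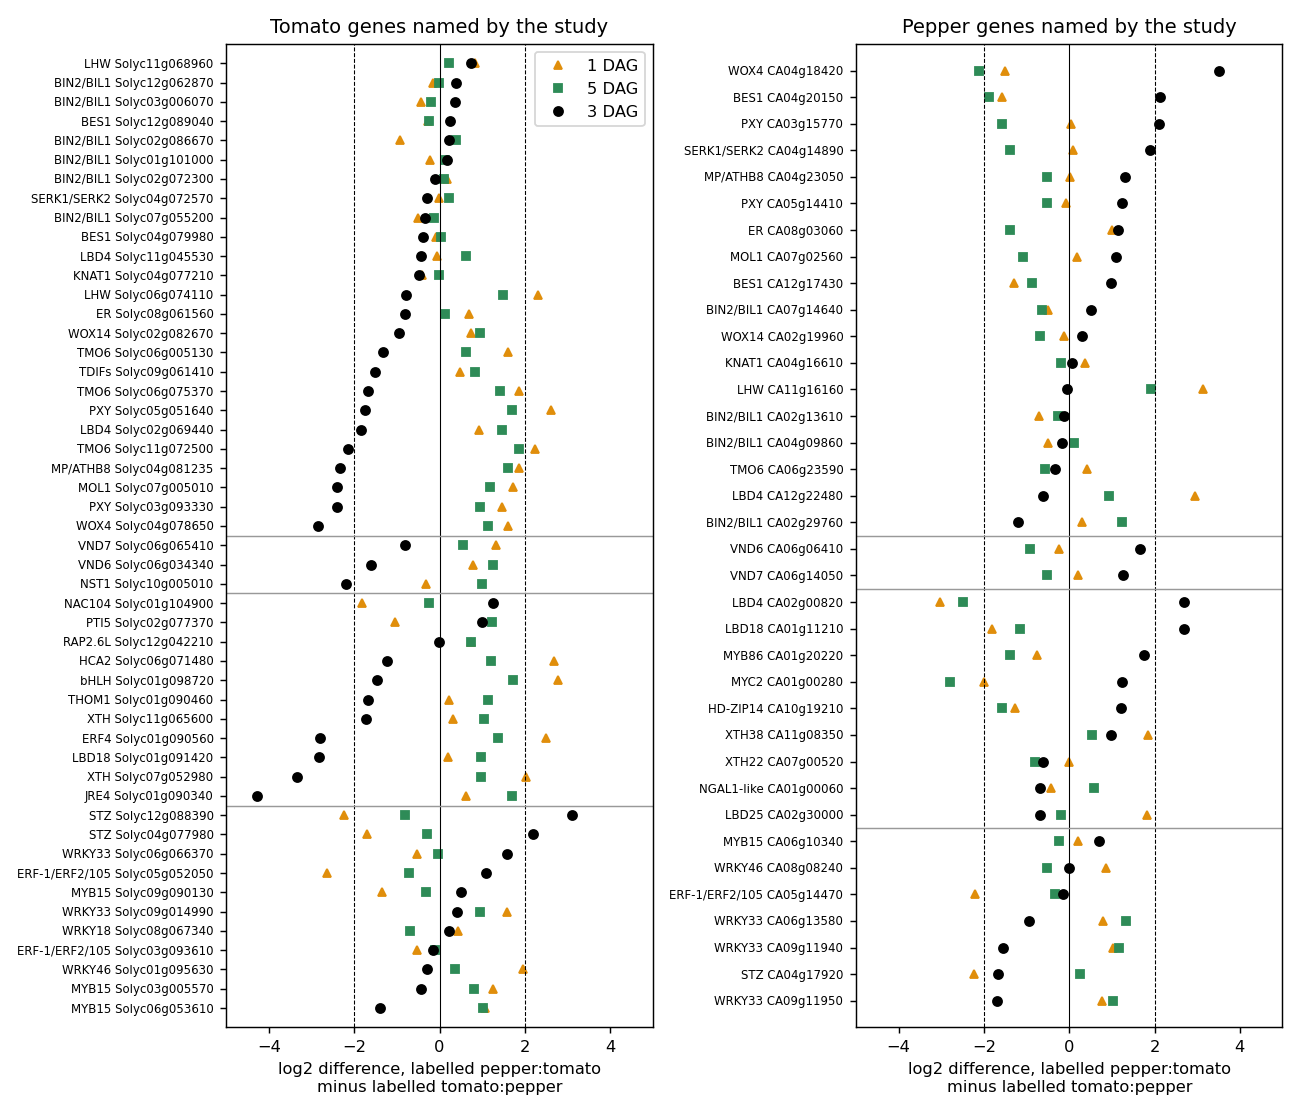
Log2 difference, labelled pepper:tomato minus labelled tomato:pepper (horizontal axis), of the 50 tomato and 36 pepper genes named by the study and measured at 3 DAG (black circles), with 1 DAG (orange triangles) and 5 DAG (green squares). Grey lines part, from the top, cambium and vascular signalling, xylem fate, network genes and stress factors, LBD4 CA02g00820 of both the first list and the network list is drawn in the latter, and dashed lines mark the fold. Black circles of tomato cambium genes lie mostly left of 0 and those of pepper mostly right.

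Over all named genes, 50 of 56 tomato genes were measured. Of these, 10 were past the fold higher in labelled tomato:pepper and 2 higher in labelled pepper:tomato, beside 5.55% and 2.57% of all tomato genes. The list's median was -0.63 and came to 0.07 on FPKM as deposited. Of the 50, 37 had a sign at 3 DAG opposite to both other days, beside 9242 of the 16195 tomato genes measured at every day. Not all of the 50 were measured at 1 DAG. Of 42 pepper genes, 36 were measured, with a median of 0.60. Past the fold were 5 higher in labelled pepper:tomato and 0 higher in labelled tomato:pepper, beside 4.49% and 2.39% of all pepper genes. Opposite to both other days were 18 of the 36, beside 7929 of the 14587 pepper genes measured at every day. Not all of the 36 were measured at 1 DAG. In 15 of the 36 pepper genes the sign was that of 1 DAG, and in 7 that of 5 DAG. Over all pepper genes measured at both days it was 40.5% and 22.1%.

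The targets of the self-graft networks differed by module. The counts below stand beside 2.57% of all tomato genes and 4.49% of all pepper genes past the fold higher in labelled pepper:tomato, and 5.55% and 2.39% higher in labelled tomato:pepper. Targets of the tomato 5 DAG module lay on the side of labelled tomato:pepper. Of 83 measured, 40 were past the fold there and 2 in labelled pepper:tomato, with a median of -1.91, after 0.59 at 1 DAG and before 1.05 at 5 DAG. The tomato 1 DAG module lay the other way, with 15 of 65 past the fold higher in labelled pepper:tomato, 2 higher in labelled tomato:pepper and a median of 0.31. Targets of the tomato 3 DAG module were split, with 23 of 88 past the fold higher in labelled pepper:tomato and 25 higher in labelled tomato:pepper. The pepper module of 5 DAG, with 121 targets measured, had 37 past the fold higher in labelled pepper:tomato and 8 higher in labelled tomato:pepper (median 0.93). The pepper 3 DAG module had 43 and 16 of 170 (median 0.07) and the 1 DAG module 1 and 4 of 120 (median 0.25). For this 1 DAG module that was 4.17% in all, beside 6.88% of all pepper genes. The medians of these last 2 modules came to -0.42 and -0.10 on FPKM as deposited. The study chose these targets because they changed over time in the self-grafts, so a large share past the fold is no independent evidence of a response to the heterograft.

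Pepper transcription factors to which the study gave a family and a regulatory role were drawn from networks of these heterografts, and their values are likewise no independent evidence. Of 192 such regulators, 159 were measured. Past the fold were 20 higher in labelled pepper:tomato and 20 higher in labelled tomato:pepper, beside 4.49% and 2.39% of all pepper genes. Opposite in sign to both other days were 126 of the 159, beside 7929 of the 14587 pepper genes measured at every day. Not all of the 159 were measured at 1 DAG. The family counts stand beside the same 4.49% and 2.39% past the fold, and each family is small. Of 7 LBD factors, 4 were past the fold higher in labelled pepper:tomato and 1 lower (median 2.31), and of 5 Dof factors, 3 and 1 (median 2.04). A Dof gene, CA02g25910, stood at 240 in labelled pepper:tomato and 34.1 in labelled tomato:pepper (2.78), against 12.3 and 244 at 1 DAG and 39.6 and 147 at 5 DAG. The HD-ZIP gene CA01g05840 had the widest difference of these regulators, at 31.0 and 0.536 (4.38), against -3.79 at 1 DAG and -4.70 at 5 DAG. The GATA gene CA03g35040 stood at 29.8 and 1.37 (3.70) and the bZIP gene CA02g24850 at 86.1 and 9.72 (3.02).

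Other families lay toward labelled tomato:pepper. Of 8 measured NAC factors, 3 were past the fold there and 0 in labelled pepper:tomato (median -1.65). The NAC gene CA08g15460 stood at 11.01 and 144 (-3.60), against 177 and 17.7 at 1 DAG and 47.3 and 9.66 at 5 DAG. Of 9 MYB-related factors, 3 were past the fold there and 0 in labelled pepper:tomato (median -1.17), and the MYB gene CA06g24340 stood at 16.0 and 298 (-4.14), with the pepper self-graft at 114. None of the 11 WRKY factors was past the fold, though 9 lay below 0 (median -0.96), and none of the 7 heat shock factors was (median -0.39).

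The largest differences in each table belonged to genes that the files do not pair with a name. In tomato, Solyc10g083880 stood at 4848 in labelled pepper:tomato and 9.66 in labelled tomato:pepper (8.83), with the tomato self-graft at 4336. Its differences were -6.12 at 1 DAG and -7.81 at 5 DAG. Its neighbour by number, Solyc10g083890, stood at 588 and 1.45 (7.91) with the self-graft at only 9.33, far below the higher graft. Solyc08g067500 stood at 1.23 and 1320.45 (-9.21) with the self-graft at 279, and Solyc08g067510 at 2.41 and 1094 (-8.33) with the self-graft at 325. In pepper, CA02g18250 stood at 495 and 1.66 (7.54) with the self-graft at 192, and CA05g02660 at 587 and 3.45 (7.05) with the self-graft at 393. CA05g14650 stood at 1.49 and 167 (-6.08) with the self-graft at 49.2. CA04g12700 was listed at 0 in labelled pepper:tomato and at 7152 in labelled tomato:pepper. It was also listed at 0 in the pepper self-graft at 3 and 5 DAG but at 2976 and 6071 in pepper:tomato at 1 and 5 DAG, and no fold is given for it.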

How the data were processed

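Poly(A) RNA libraries of graft junctions were sequenced single-end. The authors trimmed, aligned and quantified the reads with TuxNet at default settings (fastq-mcf, hisat2, Cufflinks), with the heterografts aligned to the joined tomato (ITAG3.2) and pepper (CM334) genomes. Versions are not given in the sources used here. The values used are FPKM as deposited, 1 per group of 4 replicates in each of 3 tables. The authors' fold change and q-value columns compare days within a graft and were not used. Replicates are separate junctions, but the pooled value hides their spread, and depth is unknown.

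Rescaling, the pseudocount of 1, the filter of 1 rescaled FPKM and the log2 difference of 2 are described with the results. Python 3.11.15, pandas 2.3.3 and numpy 2.4.6 were used, and the counting was tested on simulated data. Genes named are those to which the study gives an identifier, the 3 members of a family with the widest difference at 5 rescaled FPKM or more (of which the text prints some), and per species and direction the 2 widest differences at 10 rescaled FPKM or more. The rule also picked unnamed genes by sign over days, which are not printed. A gene of 2 lists counts in both. Members and lists were chosen with earlier results of these data known. The study's genes for cambium and xylem maintenance were parted here into the cambium, xylem and stress lists. No identifier of the tables matched the reference (0 matched), so lists by keyword and sequences could not be used. Of the tables' rows, 1757 of 33604 in tomato and 148 of 30088 in pepper join several identifiers, whose reads cannot be told apart. Scaling, pseudocount, filter, fold and labels were varied, and 2 alternatives were added after seeing the data.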

Additional observations from a re-analysis of the deposited data

Results flagged for a closer look

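The difference in tomato share of FPKM, labelled pepper:tomato minus labelled tomato:pepper, had a different sign at 3 DAG (22.0 percentage points) than at 1 DAG (-41.6) and 5 DAG (-26.1). Genes past the fold in the same direction at 1 and 5 DAG had a median difference of the opposite sign at 3 DAG. The median was -2.38 for the tomato genes higher in pepper:tomato at the other days and 2.74 for those higher in tomato:pepper. In pepper it was -1.76 and 2.76. Neither difference between days was tested, since each group has 1 value.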

How the results depend on the processing

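No paired analysis was possible because the tables hold 1 value per group, and for the same reason no replicate could be left out. The counts of tomato genes past the fold, 443 higher in labelled pepper:tomato and 958 in labelled tomato:pepper, came to 781 and 611 on FPKM as deposited, to 725 and 1874 with a pseudocount of 0.1, to 236 and 359 with 5, and to 1550 and 2734 at a log2 difference of 1. For pepper, 681 and 362 came to 475 and 670, 1241 and 610, 282 and 177, and 2001 and 1540 under the same settings. On FPKM as deposited the share of called genes higher in labelled pepper:tomato was 56.1% against 31.6% in tomato and 41.5% against 65.3% in pepper. With genes at 5 rescaled FPKM or more in the self-graft, an alternative added after seeing the data, 459 tomato genes were higher in labelled tomato:pepper. The same-sign shares against 1 and 5 DAG were 22.7% and 21.4% in tomato and 24.4% and 14.4% in pepper on FPKM as deposited, and 69.4%, 68.6%, 59.5% and 77.9% with the 3 DAG labels exchanged. The tomato share differed by 14.7 points without the 100 highest genes and by 0.34 points as a share of genes at 1 FPKM or more, with labelled tomato:pepper then at 52.6%. Rescaling to each species' own total, no filter, a filter of 5 and leaving out genes listed at 0 kept these counts within 1.5 times and the shares within 5 points. Of 791 alternative values for 137 genes and lists, 633 stayed within 0.5 on the log2 scale, 158 moved further and 0 past the fold changed sign. Among genes at 5 or more in the self-graft, the median of all named pepper genes came to -0.01 and that of all named tomato genes to 0.09. Apart from the settings' own construction, the cause was not tested.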

Other observations

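Genes listed at 0 in a single 3 DAG column while abundant in the other were few. In tomato, 9 genes listed at 0 in labelled pepper:tomato were at 10 rescaled FPKM or more in labelled tomato:pepper, and 13 the other way. In pepper these counts were 4 and 9. Of all genes past the fold, the lower value was listed at 0 for 34 of 443 and 46 of 958 in tomato and for 32 of 681 and 13 of 362 in pepper. Such a 0 can be a failed estimate.

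Over the 3 days together, 16195 tomato genes were measured at every day, of which 3155 kept the same sign of difference and 9242 had a sign at 3 DAG opposite to both other days. In pepper, 2513 of 14587 kept the sign and 7929 were opposite.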
